A study of Homo sapiens with 2 samples.

Results

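The probes described here detect the human miRNAs numbered miR-4417 to miR-4540, a block of names given largely to small RNAs found by sequencing of B cells. Members were taken by number from the names in the scanner output, with any letter or arm suffix, and 4 numbers were left out (miR-4454, miR-4461, miR-4484 and miR-4485). This gave 139 member probes for 120 numbers, out of 2565 miRNA probes, each with 1 spot per array. The block was not chosen by any measured value. The samples were exosomes, small vesicles released by cells, purified by ultracentrifugation from the medium of HuH-7, an established human hepatocellular carcinoma line. The 2 groups, HuH-7-P against HuH-7-M in the titles, share the line name HuH-7; the meaning of P and M is not spelled out in the labels, which give no other agent, and the series is titled for intrahepatic metastatic cell lines. Cultures were grown with bovine serum and then moved to advanced DMEM before collection. RNA of each group was labelled with Cy5 and hybridised to 1 array of the 3D-Gene miRNA platform, so every value is from 1 array per group, no spread between cultures could be measured, and no test between groups was possible. In bulk vesicle RNA, fewer vesicles and less RNA per vesicle cannot be told apart.

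A miRNA is cut from a hairpin precursor by Drosha and Dicer and guides Argonaute to messenger RNAs, mainly through the seed, bases 2 to 8 from its 5′ end. Either strand of the hairpin can be loaded, and the strands are named the 5p and 3p arms. miRNAs of this block were numbered late, when deep sequencing reached rare small RNAs, and many rest on few reads and have no well-described targets. B cells are antibody-producing lymphocytes and are not part of a HuH-7 culture. A spot's brightness depends on the sequence of probe and miRNA as well as on the amount of miRNA, so a bright spot beside a dim one does not show which miRNA was more abundant.

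RefSeq (GRCh38.p14) held a mature sequence for 125 of the 139 members. Sequences are written 5′ to 3′ with the seed in capitals. The first set shows the brightest members with a sequence, because their composition recurs in the results:
miR-4497: cUCCGGGAcggcugggc
miR-4488: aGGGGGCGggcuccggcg
miR-4466: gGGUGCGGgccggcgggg
miR-4516: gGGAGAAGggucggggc
miR-4463: gAGACUGGgguggggcc
miR-4530: cCCAGCAGgacgggagcg
miR-4505: aGGCUGGGcugggacgga
miR-4467: uGGCGGCGguaguuaugggcuu

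The second set is taken from the 6 lowest and the 6 highest normalized differences between the arrays, the first 4 lower and the others higher on the HuH-7-M array:
miR-4443: uUGGAGGCguggguuuu
miR-4435: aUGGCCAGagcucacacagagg
miR-4535: gUGGACCUggcugggac
miR-4491: aAUGUGGAcuggugugaccaaa
miR-4486: gCUGGGCGaggcuggca
miR-4492: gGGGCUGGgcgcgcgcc
miR-4428: cAAGGAGAcgggaacauggagc
miR-4525: gGGGGGAUgugcaugcugguu

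The third set shows the members of the block that lie in 2 gene regions tied to B cells, the immunoglobulin heavy chain locus IGH (the first 4) and PAX5 (the last 2):
miR-4539: gCUGAACUgggcugagcugggc
miR-4507: cUGGGUUGggcugggcuggg
miR-4538: gAGCUUGGaugagcugggcuga
miR-4537: uGAGCCGAgcugagcuuagcug
miR-4476: cAGGAAGGauuuagggacaggc
miR-4540: uUAGUCCUgccuguagguuua

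The fourth set shows members that carry the seed of a long-known family, each with a family probe on the array for comparison, and the dimmest member:
miR-4458: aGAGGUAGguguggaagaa
miR-4500: uGAGGUAGuaguuucuu
let-7e-5p: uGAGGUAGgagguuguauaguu
miR-4429: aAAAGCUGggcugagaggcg
miR-320b: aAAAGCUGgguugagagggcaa
miR-4465: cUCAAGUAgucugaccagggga
miR-26a-5p: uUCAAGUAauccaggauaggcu
miR-4464: aAGGUUUGgauagaugcaaua

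Of the 139 members, 97 (69.8%) exceeded the BLANK limit on both arrays, against 62.1% of all miRNA probes. The limit is the mean plus 2 SD of the 320 empty BLANK spots after the top and bottom 5% were left out, and lay 2.62 scanner units above the BLANK mean for HuH-7-P, or 2.44 in the case of HuH-7-M. Against the stricter limit set from 85 spots named No Probe, which lay 27.2 and 31.2 units above the BLANK mean, 63 members (45.3%) passed on both arrays, against 30.8% of all miRNA probes. Of the others, 3 exceeded the BLANK limit on HuH-7-P alone, 4 on HuH-7-M alone, and 35 on neither. In what follows a signal is the spot median minus the BLANK mean, in scanner units, given for HuH-7-P and then HuH-7-M, and a member above the BLANK limit on both arrays is called measured. The median member signal was 27.1 and 23.6, compared with 10.5 and 10.1 for the 2426 miRNA probes outside the block. The block of breast-tumour miRNAs with numbers 4632 to 4804, which was also filled by deep sequencing, gave 12.7 on both arrays and had 61.1% of its 280 probes measured. The 5p arms of the mirtron block 6726 to 6895, which are cut from short introns, were brighter at the median, at 158 and 166. Of these 5p arms, 95.2% were measured. The 3p arms of that block had a median close to that of the members, at 25.3 and 24.6, and 87.5% were measured.

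Signal within the block was concentrated in a few members. The 139 members made up 5.42% of the miRNA probes and held 7.61% and 8.91% of the summed signal. The 5 brightest held 53.0% and 60.4% of the block's own signal, and the 12 brightest held 75.7% and 81.3%. On each array 11 members stood among the 100 brightest miRNA probes. Signals over 1000 on both arrays were reached by 9 members (6.47%), against 3.04% of all miRNA probes, and signals over 100 by 41 (29.5%), against 15.4%.

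**Figure D1:**
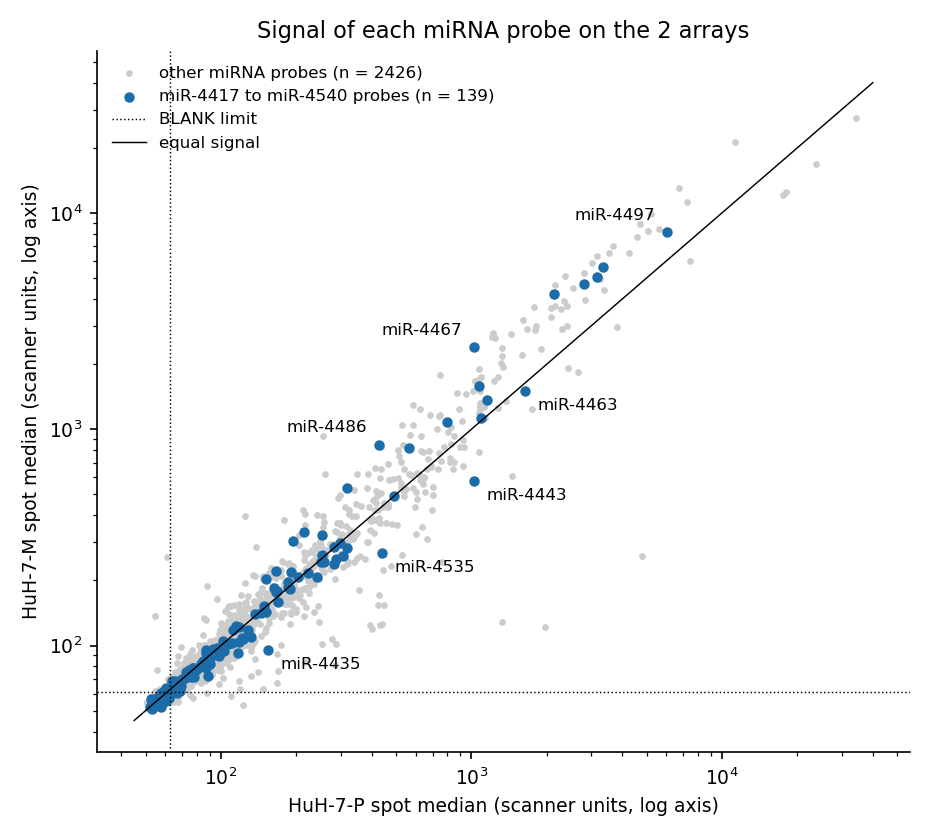
Spot medians of all miRNA probes on the HuH-7-P (x) and HuH-7-M (y) arrays, in scanner units on log axes, with the 139 probes of the block in blue and the 2426 others in grey. The dotted lines mark the BLANK limits and the solid line equal signal; 97 members lie above both limits, and most of the brightest lie above the line of equal signal.

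The brightest member was miR-4497, at 5998 and 8092. Its precursor lies at chr12:109833350-109833366 (mature part, plus strand), within the bounds of TRPV4, the gene of a calcium channel that opens with cell swelling. Here and below, a member within a gene is so by position alone. Strands were not matched, so it can lie on the strand opposite to the gene. miR-4488, at chr11:61508599-61508616 outside the gene bounds of the table used, gave 3290 and 5556. miR-4466, within ARID1B, a subunit gene of the SWI/SNF chromatin remodeller, gave 3104 and 4973. miR-4516, within PKD1, the gene of polycystin-1, gave 2759 and 4651. miR-4508 gave 2079 and 4154. All 5 were higher on the HuH-7-M array before any scaling, by a log2 ratio of 0.43 for miR-4497 and 0.9986 for miR-4508 at the ends of the range.

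The 7 next in brightness were less uniform. miR-4467, within LRWD1, a gene of the origin recognition complex, gave 965 and 2336. miR-4463, within the bounds of FILIP1, gave 1582 and 1440 and was the only member over 1000 at the mean of the arrays with the lower signal on HuH-7-M. miR-4530 gave 1008 and 1524, miR-4459 1088 and 1302, and miR-4532 1034 and 1074. miR-4505, within MIDEAS, gave 736 and 1025. miR-4443, at chr3:48196572-48196588, gave 967 and 515 and so had the lower signal on HuH-7-M.

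The upward shift of bright members was shared by other bright probes. Of the 10 members with a mean signal over 1000, 9 had a higher signal on HuH-7-M, with a median log2 ratio of 0.64 before scaling. Outside the block, the 76 miRNA probes of that brightness had a median of 0.64, and 82.9% were higher on HuH-7-M. Spike Control 1 and Spike Control 2, control probes of the array, were also brighter on HuH-7-M, by a log2 ratio of 0.51 and 0.66. Between 10 and 100 units, the 45 members had a median log2 ratio of -0.04 and 20 of them were higher on HuH-7-M. The part of array-wide brightness in the members' ratios was not tested.

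After background correction fitted on the BLANK spots, an offset of 50 and quantile normalization over the miRNA probes, the 97 measured members had a median log2 difference of 0.009 (HuH-7-M minus HuH-7-P throughout), against 0.010 for all 1593 measured probes. Quartiles were -0.10 and 0.10. The offset shrinks the differences of dim spots. No member was at least 2-fold higher on HuH-7-M, a size reached by 0.439% of all measured miRNA probes, and 1, miR-4443, was at least 2-fold lower, a size reached by 1.69%. In either direction 2.13% of all measured probes passed. miR-4443 stood at the threshold itself, with a difference of -1.002. Without scaling and without the offset, the plain signal ratio of 3 members was at least 2-fold higher (3.33% of all measured probes were) and that of 3 was at least 2-fold lower (4.46%), and 7.78% of all measured probes passed one way or the other. The 3 higher were miR-4467, miR-4486 and miR-4479, and the 3 lower were miR-4435, miR-4491 and miR-4537. Of these, miR-4479 (3.76 and 9.97) and miR-4537 (8.80 and 2.99) were within a few units of the BLANK limit on the weaker array.

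A yardstick for a single spot was available from 14 control probes with 8 spots each, of which 13 were above background on both arrays and S-Probe1 was used for HuH-7-M only. The pooled SD of their log2 values, with the same offset, was 0.145, which gives an SD of 0.205 for a difference between single spots and 0.41 for 2 SD. This covers spot-to-spot spread within an array and none of the spread between cultures, extractions or labellings. S-Probe7 had the widest spread, with an SD of 0.518 on HuH-7-P. Differences past 2 SD were seen for 12 of the 97 measured members (12.4%), against 10.2% of all measured miRNA probes. Of these, 8 members were higher on HuH-7-M, where 5.4% of all probes were, and 4 were lower, where 4.83% were. The share of members past this size was close to that of all probes.

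**Figure D2:**
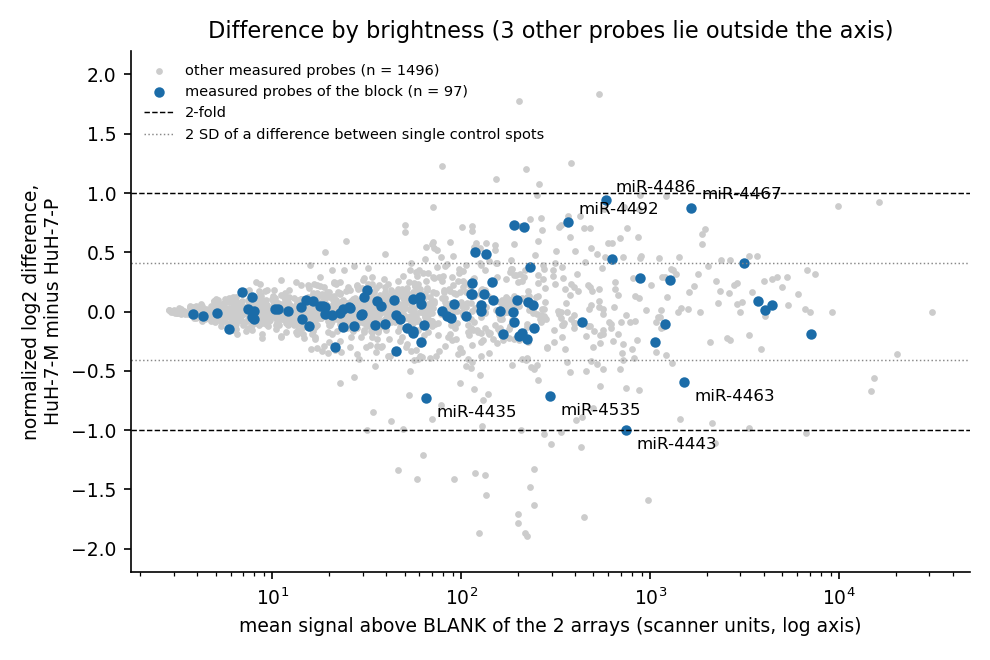
Normalized log2 difference between the arrays (y, positive where HuH-7-M was higher) against the mean signal above BLANK of both arrays (scanner units, log axis, x) for the 97 measured members in blue and the 1496 other measured miRNA probes in grey. Dashed lines mark 2-fold and dotted lines 2 SD of a difference between single control spots; 12 members lie beyond the dotted lines and miR-4443 lies on the lower dashed line.

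Among the members lower on HuH-7-M, miR-4443 gave 967 and 515. miR-4435 gave 94.2 and 36.3, with a normalized difference of -0.73. It has several loci in RefSeq, one of them at chr2:87629764-87629785, so its signal cannot be assigned to a locus. miR-4535, at chr22:48780331-48780347, gave 379 and 208, a difference of -0.72. miR-4463 had a normalized difference of -0.60, although its signals of 1582 and 1440 were close. Both miR-4482-3p (56.8 and 33.5) and miR-4491 (29.4 and 13.6) differed by less than 2 pooled SD of single spots after the offset, at -0.33 and -0.30. Because that yardstick is wide for spots this dim, it does not show that these 2 differences lie within spot-to-spot spread.

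Among the members higher on HuH-7-M, miR-4486, within NAV2 at chr11:19575314-19575330, gave 370 and 789, a normalized difference of 0.94. miR-4467 gave 965 and 2336, a difference of 0.88. miR-4492, within BCL9L, a coactivator gene of Wnt signalling, gave 259 and 475, a difference of 0.75. miR-4428, within RYR2, a calcium release channel gene, gave 134 and 245, a difference of 0.73. miR-4476, within PAX5, gave 155 and 276, a difference of 0.71. miR-4525, within RAB40B, gave 92.1 and 145, a difference of 0.50. All 6 had the higher spot on HuH-7-M before scaling as well, by a log2 ratio from 0.65 for miR-4525 to 1.27 for miR-4467.

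The sign of some of these differences depended on the scaling, and bright and dim probes did not move alike. Members with a mean signal over 1000 had a median of 0.03 by quantile normalization and 0.04 by the spike controls. Between 10 and 100 units the member medians were -0.01 and -0.60. When the arrays were scaled to the spike controls, the median of all measured probes moved to -0.58 and that of the members to -0.57, with 88 of 97 members below 0. miR-4525 then stood at -0.13, miR-4448 at -0.13 and miR-4442 at -0.03, against 0.50, 0.49 and 0.44 by quantile normalization. All 3 still stood above the shifted median. miR-4486, at 0.42, and miR-4467, at 0.65, were still the members furthest above the median. miR-4443, miR-4435, miR-4535 and miR-4463 were below 0 under each of the 6 scalings and corrections plotted for them. The size for miR-4463 varied, from -0.71 by the spike controls to -0.13 with no scaling and -0.09 by the 75th percentile. The last 2 values are within 2 SD of single spots. For miR-4497, the difference was -0.19 by quantile normalization and 0.43 with no scaling, so no direction is given for it.

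**Figure D3:**
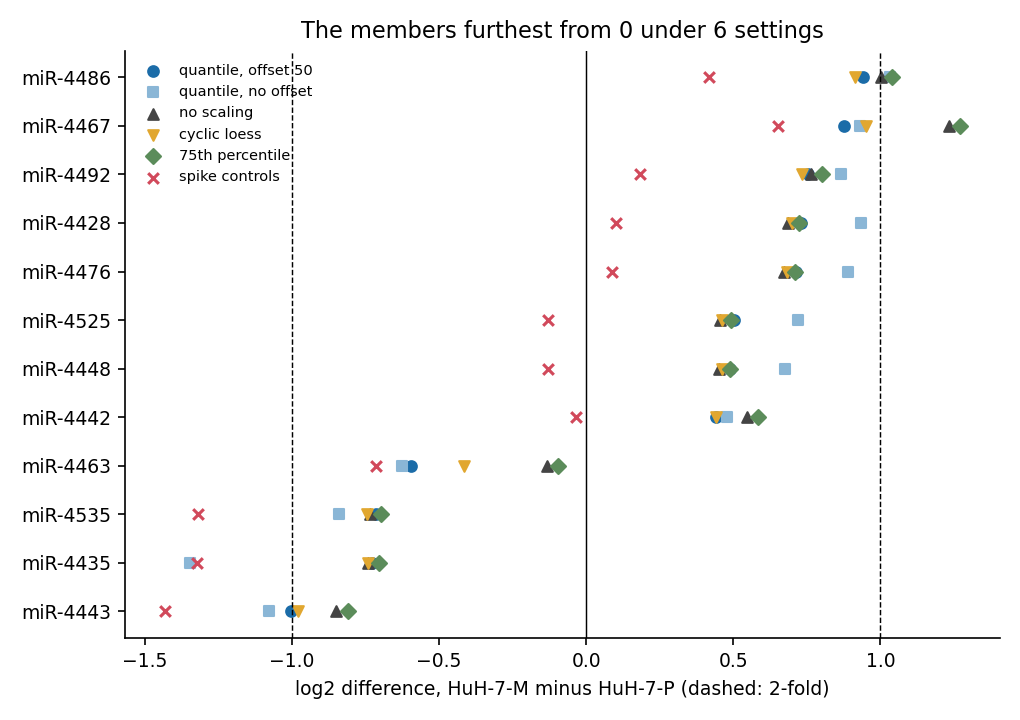
Log2 difference between the arrays (x, positive where HuH-7-M was higher) of the 12 measured members past 2 SD of a difference between single control spots, each under 6 combinations of background correction and scaling (symbols). Dashed lines mark 2-fold; scaling to the spike controls shifted all 12 to the left, and miR-4525, miR-4448 and miR-4442 crossed 0.

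Members rich in G gave the brighter spots. Across the 125 members with a sequence, the share of G in the mature miRNA had a Spearman correlation with signal of 0.78 and 0.77, and the share of G and C together one of 0.80 and 0.79. The share of C alone gave 0.05 and 0.03. The shares of A (-0.49 and -0.48) and U (-0.44 and -0.44) ran the other way. These are descriptions across probes that share 1 hybridisation per array. In the 86 measured members with a sequence, the correlation for G was 0.74 on both arrays and that for G and C 0.65 on both. Outside the block, over 2128 probes, G gave 0.50 on both arrays, and G and C 0.76 and 0.77. The normalized difference between the arrays had a correlation of 0.17 with G over the 86 measured members.

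More members were measured in the classes with more G. Of the 35 members with less than 25% G, 13 were measured, and none exceeded 100 units. Between 25% and 35% G, 13 of 29 were measured. Between 35% and 45%, all 24 were measured, with a median signal of 30.7 and 27.3. At 45% G and above, 36 of 37 were measured, with a median of 190 and 183, and 28 of them exceeded 100 units on both arrays. The member that was not measured in this class was miR-4510, at 2.13 and -1.54. Of the 310 probes outside the block at 45% G or more, 99.7% were measured. In the lower classes, from the least G upward, 45.4%, 55.9% and 86.3% of the probes outside the block were measured.

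**Figure D4:**
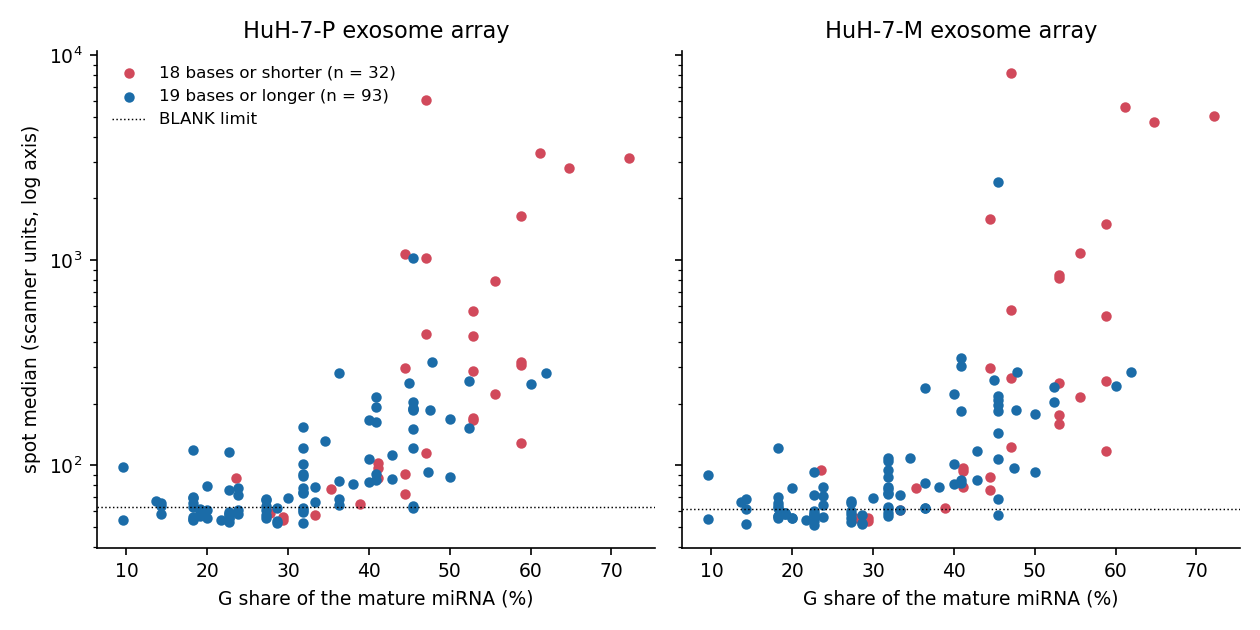
Spot median (scanner units, log axis, y) against the G share of the mature miRNA (percent, x) for the 125 members with a RefSeq sequence, on the HuH-7-P (left) and HuH-7-M (right) arrays. Red points are the 32 members of 18 bases or shorter, blue points the 93 longer ones, and the dotted line the BLANK limit; the brightest spots are short and rich in G, with miR-4467 the brightest of the longer members.

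Runs of G marked bright members too. The run GGGG, searched on the mature strand alone, was present in 19 members (15.2%), against 11.9% of all miRNA probes with a sequence, and all 19 passed the No Probe limit on each array. In the sequences printed so far, miR-4488, miR-4466, miR-4516, miR-4463, miR-4492, miR-4525 and miR-4465 hold it. The 17 members with no 2 adjacent Gs had a median signal of 2.44 and -0.26. Of them, 7 (41.2%) were measured, against 49.2% of the 585 such probes outside the block.

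Short members were frequent in the block. Of the 125 with a sequence, 32 (25.6%) were 18 bases or shorter, against 4.32% of the probes outside the block. These 32 had a median signal of 136 and 137. Of them, 28 (87.5%) were measured, against 66.3% of the 92 short probes outside the block. The 84 members of 21 bases or more had a median signal of 9.18 and 9.99. Of them, 50 (59.5%) were measured, close to the 60.0% of such probes outside the block. All 6 members with a known sequence and signals over 1000 on both arrays, miR-4497, miR-4488, miR-4466, miR-4516, miR-4463 and miR-4530, were 17 or 18 bases long. The 32 short members were also richer in G, with a median of 47.1% compared with 31.8% in the long ones. Within each length class the correlation of G with signal was present, at 0.78 and 0.77 in the short members and 0.66 and 0.65 in the long ones. Outside the block, the 92 short probes had a median signal of 18.7 and 18.6 and a median G share of 28.6%.

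The IGH locus encodes the heavy chain of antibodies, and the stretch between its joining segments and IGHM holds the switch region used in class switching. This region is built of short repeats rich in G. Of the block, 4 members lie on the minus strand in this stretch, after IGHJ6 and before IGHM in the direction of transcription, within 2041 bases: miR-4539 (chr14:105857513-105857534), miR-4507 (chr14:105858125-105858144), miR-4538 (chr14:105858221-105858242) and miR-4537 (chr14:105859532-105859553). On the arrays miR-4507 gave 190 and 185, miR-4538 129 and 125, and miR-4539 125 and 139. miR-4537 gave 8.80 and 2.99, the second value only just above the BLANK limit. The normalized differences of the first 3 were between -0.01 and 0.15, less than 2 SD of single spots. G made up 60.0% of miR-4507, 45.5% of miR-4538 and of miR-4539, and 36.4% of miR-4537.

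Of these, 3 contain the switch-type repeat GGGCU and 3 contain GAGCU, with miR-4538 and miR-4539 holding both. Across the block, GGGCU was found in 20 of 125 members (16%) and GAGCU in 8 (6.4%), against 4.84% and 2.84% of all miRNA probes with a sequence. Either was found in 26 members (20.8%), against 7.55% of all probes. The search used the mature strand alone, and a match is a description of letters.

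PAX5 encodes a transcription factor that maintains B cell identity. miR-4476 (chr9:36893466-36893487) and miR-4540 (chr9:36864254-36864274) both lie within its bounds on the minus strand. miR-4476 gave 155 and 276, and was among the members higher on HuH-7-M, whereas miR-4540 gave 17.8 and 19.9, with a difference of 0.04. The difference of miR-4540 was within 2 SD of single spots and that of miR-4476 was not.

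Members within the bounds of other genes with roles in lymphocytes, picked from the gene names after the values had been seen, ranged widely. The strand of the gene was not matched to that of the miRNA, so these genes are not shown to be hosts. miR-4513, within CSK, a kinase gene that restrains lymphocyte signalling, gave 222 and 180. miR-4518, within ITGAL, an integrin gene of leukocytes, gave 71.8 and 50.4. miR-4420, within LAPTM5, gave 14.6 and 18.3. Both arms of miR-4529, within the bounds of TCF4 and of TCF4-AS1, were at or below 18.4. The 125 members with a sequence lie on 21 chromosomes, 85 of them within the bounds of a gene, and 8 have more than 1 locus. Whether a member lies in an exon or an intron was not analysed here.

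The label of the block was set against miRNAs known to be strong in leukocytes. Of 11 such miRNAs, 5 were measured and 1, miR-342-3p at 35.4 and 38.2, passed the No Probe limit on each array. The 5 measured summed to 62.1 and 68.8. miR-142-3p, miR-142-5p and miR-363-3p were below the BLANK limit on both arrays, miR-150-5p gave 6.57 and 4.07, and miR-155-5p gave 8.68 and 11.7. Of 8 hepatocyte miRNAs, 5 were measured and 2 passed the No Probe limit on each array. The 5 measured summed to 119 and 149, and miR-122-5p, the main miRNA of liver cells, gave 40.0 and 67.8. miR-148a-3p, miR-101-3p and miR-122-3p were not measured. Of 3 erythroid miRNAs, 2 were measured, and these summed to 42.7 and 39.6, while 0 passed the No Probe limit on both arrays. None of the 3 lists held a miRNA with a normalized difference of 2-fold, but this could hardly have come out otherwise. Apart from miR-122-5p, no listed miRNA exceeded 40.0 on either array, and the offset keeps spots this dim below 2-fold. Whether the listed miRNAs differed between the arrays is therefore not decided by it. Without scaling and without the offset, miR-28-5p, at 3.05 and 6.97, had a log2 ratio of 1.19. Its signal on HuH-7-P was close to the BLANK limit. No other measured miRNA of the lists reached 2-fold by that ratio.

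Seeds were nearly all distinct. The 125 sequences held 120 seeds, 10 members shared a seed with another member, and 35 shared one with a probe outside the block. Members with a shared seed did not share brightness. miR-4516, with the seed GGAGAAG, gave 2759 and 4651, while miR-4434, with the same seed in an A-rich sequence, was below the BLANK limit at -2.31 and 1.53. miR-4492 and miR-4498 share GGGCUGG and gave 259 and 475, and 108 and 119. miR-4453 and miR-4538 share AGCUUGG and gave 23.4 and 21.9, and 129 and 125. miR-4524a-5p gave 9.46 and 6.61, and miR-4524b-5p, with the same UAGCAGC seed, was not above the limit on either array.

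Some members carry the seed of a long-known family, and their signals are given beside those of the family's own probes. The let-7 seed GAGGUAG, carried by a family that restrains growth in many tissues, is present in miR-4458 and miR-4500. miR-4458 gave 33.5 and 37.8, while miR-4500 was among the dimmest members, at -5.33 and -5.19. Among the 9 family probes with this seed, let-7e-5p alone was measured, at 8.33 and 5.21. miR-4429 carries the miR-320 seed AAAGCUG and gave 193 and 203, beside 51.4 and 58.3 for miR-320b, 30.0 and 31.5 for miR-320c, and 17.6 and 19.1 for miR-320d. miR-4465 carries the miR-26 seed UCAAGUA and gave 62.0 and 49.5, beside 7.87 and 2.79 for miR-26a-5p. Probe sequences were not used here, so the share of one family member's signal that comes from another was not tested.

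Both arms were on the array for 13 hairpins of the block. For 12 of these at least 1 arm was measured. In 11 of the 12 the same arm was brighter on both arrays, the 3p arm in 8 and the 5p arm in 3. Outside the block this held for 579 of 610 such hairpins, the 3p arm in 198 and the 5p arm in 381. The 3p arm of miR-4433b gave 223 and 227 and its 5p arm 38.4 and 31.0. miR-4446-3p gave 131 and 159, and miR-4446-5p 7.17 and 7.69. miR-4529 was the hairpin without a constant order, with 18.410 and 12.708 for the 3p arm and 16.005 and 12.743 for the 5p arm. In the 10 hairpins with a constant order and both sequences known, the brighter arm had more G in 6, compared with 76.2% of 483 such hairpins outside the block. In miR-4482 the 3p arm, with 22.7% G, gave 56.8 and 33.5, while the 5p arm, with 31.8% G, was below the limit on both arrays.

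**Figure D5:**
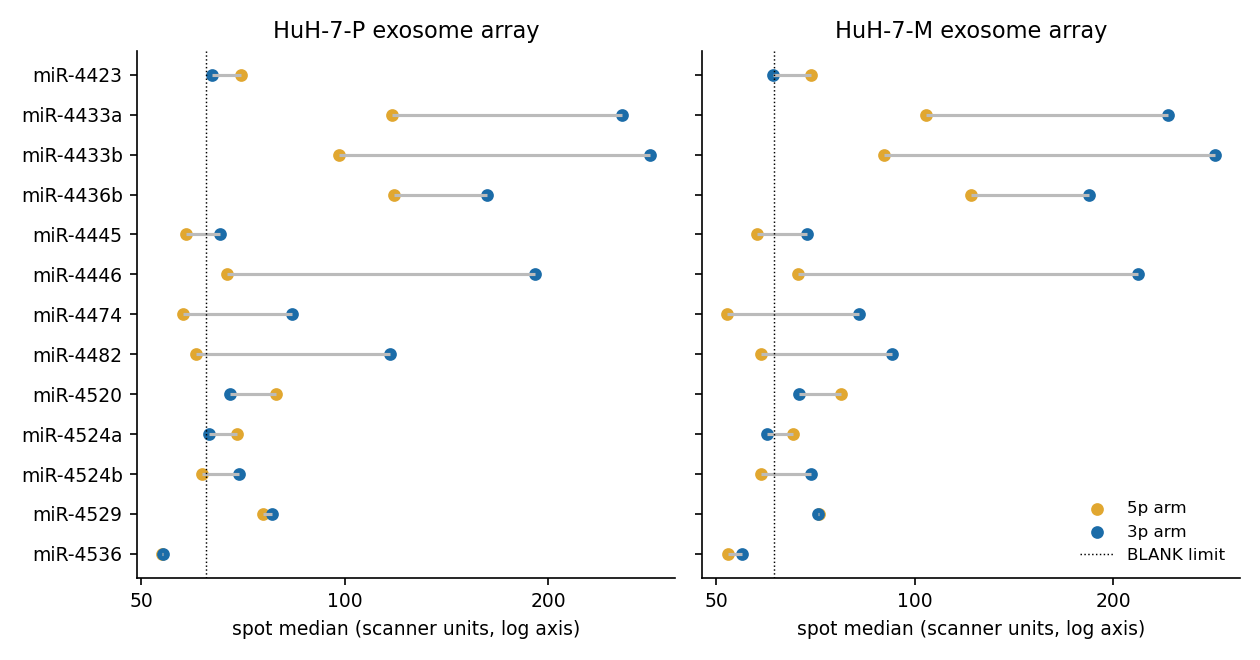
Spot medians (scanner units, log axis, x) of the 5p (orange) and 3p (blue) arms of the 13 hairpins of the block with both arms on the array, on HuH-7-P (left) and HuH-7-M (right). A grey line joins the arms of a hairpin and the dotted line is the BLANK limit; the 3p arms of miR-4433a, miR-4433b and miR-4446 stand furthest above their 5p arms.

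Some members are read from opposite strands of the same bases. miR-4433a-3p and miR-4433b-5p overlap by 21 bases on chromosome 2, and are shown here because they hold complementary sequence at 1 locus:
miR-4433a-3p: aCAGGAGUgggggugggacau
miR-4433b-5p: aUGUCCCAcccccacuccugu

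miR-4433a-3p, with 52.4% G, gave 198 and 183, and miR-4433b-5p, with 9.52% G, gave 38.4 and 31.0. The order was turned in miR-4520, where the 5p arm, with 20% G, gave 19.4 and 18.5 and miR-4520-3p, with 27.3% G over 20 of the same bases, gave 8.02 and 7.99. However, miR-4520-5p has 2 loci in RefSeq, so its signal cannot be assigned to 1 of them. Of 4 opposite-strand pairs in the block with a measured member, the strand richer in G was brighter on both arrays in 2 and dimmer on both in 2, and both of the latter pairs contain miR-4520-5p. Outside the block, the strand richer in G was brighter on both arrays in 16 of 24 such pairs and dimmer on both in 4. Near-identical members cannot be told apart with certainty: miR-4433a-3p and miR-4433b-3p differ by 3 edits and gave 198 and 183, and 223 and 227.

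At the lower end, signals reached -7.69 and -7.71, below the BLANK mean. The dimmest were miR-4464 (-7.69 and -6.73), miR-4477b (-6.70 and -7.71) and miR-4536-5p (-6.14 and -6.55). The 32 members with a sequence that were above the limit on neither array had a median of 38.1% G and C, compared with 59.1% in the 86 measured ones, and none held GGGG. The members above the limit on 1 array only allow just a lower bound of their difference. For miR-4522, above it on HuH-7-P, at 6.87 and 1.83, the normalized signal was at least 1.07-fold higher there than the HuH-7-M limit allowed. The bounds of miR-4423-3p and miR-4524a-3p, also above it on HuH-7-P, were 1.02-fold and 1.01-fold. On HuH-7-M the bounds were at least 1.05-fold for miR-4480 and 1.02-fold for miR-4521 and miR-4473, and miR-4527 gave none. Among measured members, miR-4537 (8.80 and 2.99), miR-4494 (4.39 and 3.25) and miR-4468 (5.21 and 3.42) came closest to the limit, each on HuH-7-M.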

How the data were processed

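Exosome RNA of 2 HuH-7 cultures was measured on 1 array each. The deposited scanner files give, per the file headers, spot median intensity at 635 nm (Cy5) on a linear scale with no background subtracted; the scanner's software was not stated in those headers. The authors' deposited value table holds normalized intensity, and its 97 measured members were matched to spots by value (relative tolerance 1e-06); 0 of the 97 carried the same identifier there, so names are the scanner's. From the values, it is linear, not centred and scaled to 25 over each array's median, with column medians of 24.9 and 24.8.

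Background was corrected with normexp on the BLANK spots (offset 50) in limma 3.58.1 (R 4.3.3). Log2 and quantile normalization over the 2565 miRNA probes followed. These steps were tested on simulated data with changes larger than 2-fold, placed in bright spots only. Recovery of 2-fold changes, or of any change in dim members, was not tested. Other values were computed with Python 3.11.15, pandas 2.3.3 and numpy 2.4.6. Differences are HuH-7-M minus HuH-7-P, counted past a log2 size of 1, with no test. A bound sets the brighter signal, normalized, against the BLANK limit of the other array. The number of arrays limits the precision.

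Named members were the 12 brightest, those past 2-fold, and the 6 highest and 6 lowest differences. Up to 3 above the limit on 1 array only were also named. So were those with shared seeds or several arms, and the dimmest or nearest the limit. Those of IGH, PAX5, seed families and genes with roles in lymphocytes were added after their values were seen. The members and lists were chosen with earlier results of these data known. Alternatives were other background corrections, scalings and limits, and the authors' values. Sequences and loci are from RefSeq GRCh38.p14, and gene bounds from its gene table. A member was placed within a gene by position alone, without matching strands.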

Additional observations from a re-analysis of the deposited data

How the results depend on the processing

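With the BLANK mean subtracted, no offset and quantile normalization, 2 members were at least 2-fold higher on HuH-7-M and 4 lower (3.08% and 4.71% of all measured probes). With no scaling between the arrays, 2 were higher and 0 lower (1.19% and 1.63%). With cyclic loess, 0 were higher and 0 lower (0.565% and 1.82%). Scaled to the spike controls, 0 were higher and 3 lower (0.126% and 4.58%), and the median was -0.57. Scaled to the 75th percentile, 3 were higher and 0 lower (1.44% and 1.38%). With the authors' deposited values, 4 were higher and 3 lower (3.91% and 4.16%). The No Probe limit left 63 members in place of 97, and the BLANK mean plus 3 SD left 93. Of 179 alternative values for the 26 named measured members, 118 moved by less than the SD of a difference between single spots (0.205) and 61 by more. The 118 include the values under the No Probe limit, a filter that cannot change a member's value, so they overstate the agreement between settings. The cause was not tested. Over measured members alone, the correlation of the G and C share with signal was 0.65 on both arrays. No paired analysis was possible because each group had 1 array. The signal over background limits the dim members: a difference of a few scanner units decides the ratio of miR-4479 and miR-4537.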
